A study of Saccharomyces cerevisiae with 16 samples.

Results

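Convergent intergenic regions lie between 2 genes that are transcribed toward each other, so that both flanking genes end there. A region was taken as convergent when its left flanking gene lies on the W strand and its right one on the C strand, read from the 7th letter of the systematic names. Of the 4383 nuclear regions that all 16 tables list between the same pair of genes, 1123 were convergent, 2127 lay between genes pointing the same way (tandem) and 1133 lay between genes pointing apart (divergent). The members were not chosen on their insertions.

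The calling-card assay records where a transcription factor sits in living Saccharomyces cerevisiae: the factor carries a piece of Sir4, Sir4 draws the integrase of the Ty5 retrotransposon, and Ty5 inserts close by. Each of the 16 libraries was the only one of its group. The 12 factor libraries came from strain BY4741 with sir4D and the deletion of the factor's own gene, which was Gal4, Leu3, Yrm1, Yrr1, Tea1, Lys14, Cat8, Cha4, Put3, Urc2, Hal9 or Aro80, all of the zinc cluster family. A further 4 libraries profiled Gal4 in strains labelled BY4742 (sir4D gal4D hmoD, titled HMO1), BY4743 (sir4D gal4D leu3D), BY4744 (sir4D gal4D sef1D) and BY4745 (sir4D gal4D yrm1D), called hmo1Δ, leu3Δ, sef1Δ and yrm1Δ here. In all strains the tagged factor was made from a plasmid with the ADH1 promoter, so its amount is not that of the native gene, and Ty5 was driven by the GAL1/10 promoter of a second plasmid.

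Zinc cluster factors bind as a rule to upstream activating sequences, which in yeast lie shortly before the start of a gene. A region between the ends of 2 genes is therefore usually read as one with no promoter, and such regions often serve as a reference for what a factor does away from promoters. In unmodified cells Sir4 draws Ty5 to silent chromatin at chromosome ends and the silent mating-type loci, and in these strains the genomic SIR4 was deleted, so that the tagged factor is the one that guides it.

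The factor libraries held 18295 to 36063 insertions and the 4 deletion libraries 6932 to 13882. The tables set each library beside a background set of 84109 insertions, or 103922 in the Gal4 table; where that set came from is not given in the sources used here. A fold is the region's share of the library's insertions over its share of the background. Intervals in parentheses after a fold are 95% exact binomial intervals and cover counting error only, since PCR recovered the insertions with no molecular tags stated in the labels and no group had a second library. The shares in one library add up to a constant, and a strong promoter therefore lowers the share of everything else.

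The name "convergent" fixed the strands of the flanking genes and nothing more. The median length was 254 bp, against 453 bp for tandem and 604 bp for divergent regions, and the range ran from 4 to 4898 bp. In the RefSeq gene table for the R64 assembly, 157 of the 1123 regions (14.0%) held at least 1 annotated gene inside, which the tables had not used as an edge, and 965 held none. A protein-coding gene lay inside 130 of the 157, and the other 27 held RNA genes only. A flanking gene of 1 region was missing from the gene table. Regions with an inner gene had a median length of 1840 bp, against 222 bp for those without. An inner gene can bring its own promoter, so the label "without a promoter" was relied on at most for the 965 regions with no inner gene. Results are given for both kinds. A gene counted as inner when its midpoint lay between the flanking genes, and where it starts was not checked.

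Convergent regions were poor in insertions even in the background set. They made up 25.6% of the shared regions and 18.1% of their length, but held 4.86% of the background insertions in the 15 tables that share one set, and 5.21% in the Gal4 table. The background density was 8.13 insertions per 100000 per kb in convergent, 18.2 in tandem and 24 in divergent regions. No background insertion at all was listed for 36.2% of convergent regions, against 3.67% of tandem and 1.32% of divergent ones. In the 15 tables the order was the same at matched lengths. Among regions of 200 to 400 bp with no inner gene the density was 6.74 in convergent, 21.3 in tandem and 22.9 in divergent regions. Convergent regions were lowest in each of the other length classes too. In the Gal4 table the background at 200 to 400 bp was 7.23 in convergent, 21.7 in tandem and 20.2 in divergent regions.

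**Figure D1:**
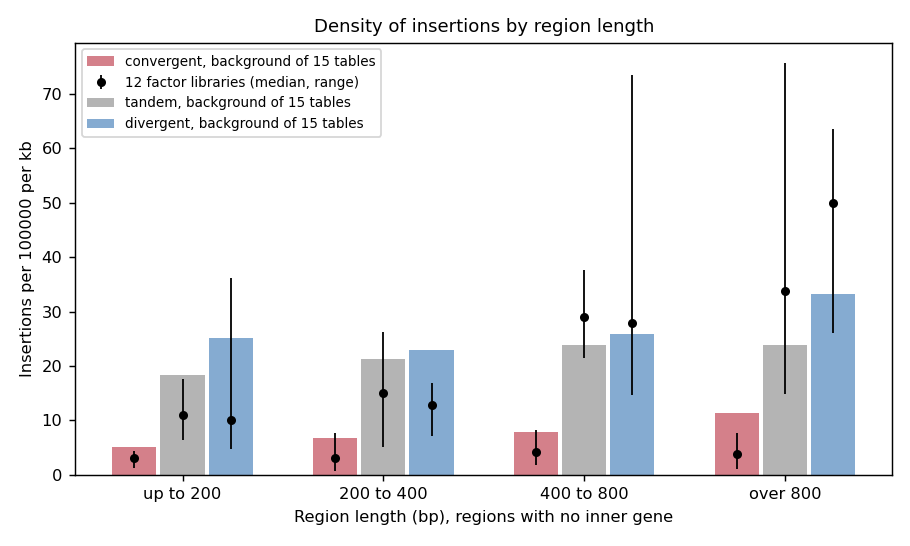
Insertions per 100000 per kb (y axis) in regions with no inner gene, by region length in bp (x axis). Bars show the background of the 15 tables for convergent, tandem and divergent regions, in that order, and black points with lines the median and the range of the 12 factor libraries over the same regions. Convergent regions have the lowest background bar in all 4 length classes, at 5.06 to 11.3, and the factor medians there lie between 3.11 and 4.24.

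In most factor libraries the convergent share was lower still than in the background. The share of insertions in convergent regions was lowest for Gal4 at 2.40%, had a median of 3.92% and was highest for Yrr1 at 5.96%. Divided by the background share, the fold was 0.461 (0.428 to 0.497) for Gal4, 0.511 (0.463 to 0.562) for Hal9 and 0.530 (0.493 to 0.570) for Leu3, the 3 lowest. It was 0.720 for Aro80, 0.768 for Cha4, 0.777 for Cat8, 0.838 for Yrm1, 0.844 for Lys14 and 0.928 for Urc2. It lay above 1 for Put3 at 1.10 (1.03 to 1.17), for Tea1 at 1.16 (1.10 to 1.23) and for Yrr1 at 1.23 (1.16 to 1.30). So 9 of 12 factor libraries had a smaller share of their insertions in convergent regions than the background, and 3 a larger one. This tally depends on the settings: Cha4 was at 1.44 with all regions of its own table, and Yrr1, Tea1 and Put3 were at 0.980, 0.952 and 0.990 when shares were taken of the insertions between genes. The density ran from 4.02 insertions per 100000 per kb for Gal4 to 9.99 for Yrr1, with a median of 6.56. It was below that of tandem and of divergent regions in 12 of 12 factor libraries. The background density was lower in convergent regions too, so this tally by itself shows no added depletion. With called regions (defined below) left out, the median fold was 0.498 in convergent, 0.671 in tandem and 0.720 in divergent regions. The fold of these uncalled regions was below 1 in all 12 factor libraries in each class, and over all shared regions at 0.272 to 0.982. Called regions are picked for counts above background in the same library, so leaving them out lowers the fold in any class. Values below 1 here are therefore no separate sign of depletion.

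Regions with and without an inner gene differed. In regions with no inner gene the fold was below 1 in all 12 factor libraries, from 0.166 (0.136 to 0.20) for Gal4 through a median of 0.466 to 0.967 (0.869 to 1.07) for Put3, whose interval includes 1. Yrr1 was at 0.420 (0.365 to 0.482) and Tea1 at 0.413 (0.364 to 0.469) there. In regions with an inner gene the fold was 1.78 (1.66 to 1.90) for Yrr1, 1.67 (1.57 to 1.78) for Tea1, 1.21 (1.12 to 1.30) for Yrm1 and 1.19 (1.10 to 1.29) for Put3, and below 1 for the other 8. Single regions carried much of this. One region held 54.9% of all convergent insertions of Yrr1 and 58.3% of those of Yrm1, another 51.6% of those of Tea1, and another 55.3% of those of Gal4. With the top region of each library left out, the fold of Yrr1 was 0.558 and that of Tea1 0.568, and the median of the 12 libraries went from 0.807 to 0.563.

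**Figure D2:**
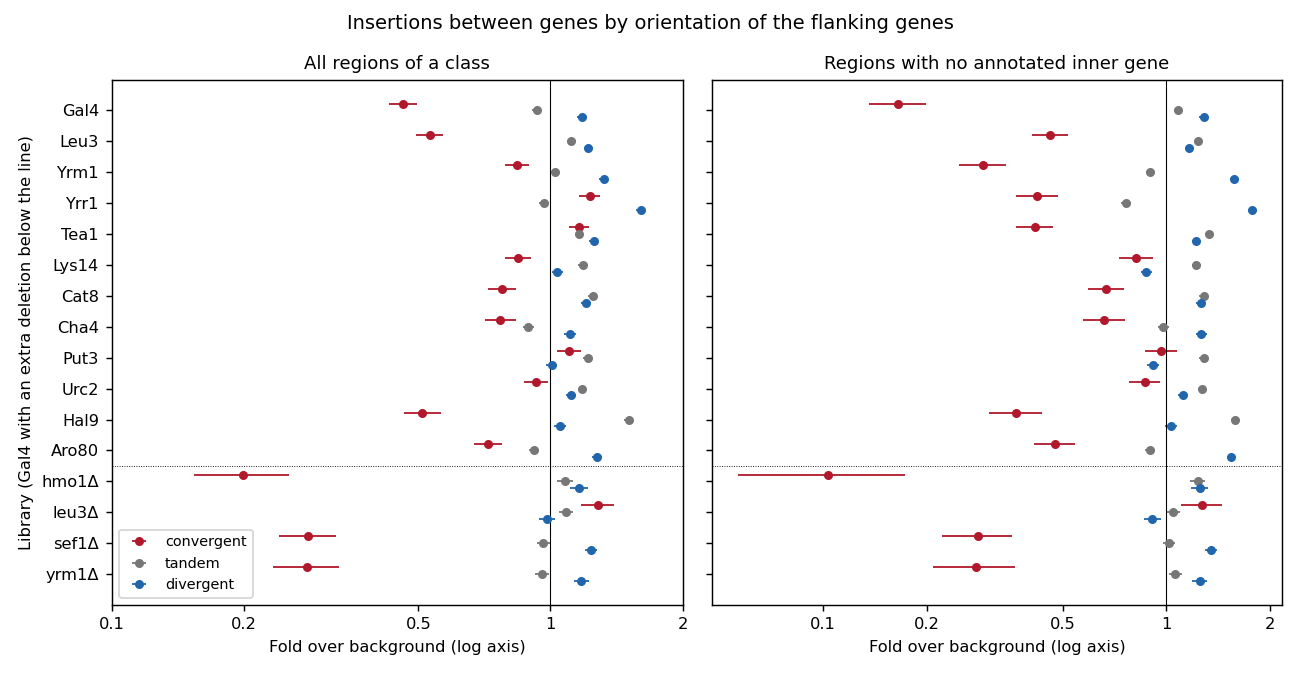
Fold over background (x axis, log scale) for each of the 16 libraries (y axis) in convergent, tandem and divergent regions, over all regions of a class (left) and those with no inner gene (right). Points are folds and lines 95% exact binomial intervals for counting error. In the right panel the convergent point lies below 1 in all 12 factor libraries and at 1.27 in the leu3Δ library.

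Set against the other classes, the convergent fold was below the tandem fold in 10 of 12 factor libraries and below the divergent fold in 11 of 12. Against tandem regions the exceptions were Yrr1, whose convergent fold was 1.27 times its tandem fold with intervals apart, and Tea1, whose intervals overlapped. Against divergent regions the exception was Put3, again with overlap. Among regions with no inner gene the convergent fold was below the tandem fold in 12 of 12 libraries, with intervals apart in 12. It was below the divergent fold in 11 of 12, with intervals apart in 10, and the exception was Put3, where the intervals overlapped. With called regions also left out, the convergent fold was below the tandem fold in 12 of 12 libraries, with intervals apart in 9. It was below the divergent fold in 10, with intervals apart in 8. The median ratio to the tandem fold went from 0.524 to 0.714, and to the divergent fold from 0.374 to 0.722.

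The strong regions were few. A call needed at least 5 insertions and a hypergeometric p of at most 0.001 in the authors' table. By this rule 28 of the 1123 convergent regions (2.49%) were called for at least 1 of the 12 factors, where 11.5% of all shared regions were. Over pairs of a region and a factor, 37 of 13476 convergent pairs (0.275%) were called, against 1.58% of all pairs, 1.79% of tandem and 2.48% of divergent pairs. The percent called was below that of both other classes in 12 of 12 libraries. Yrr1 had 6 called convergent regions, beside 1.83% of all shared regions called in its library. Tea1 had 5 (2.40% of all regions), Yrm1 4 (2.40%) and Aro80 4 (1.46%). Gal4 had 3 (1.78%), Leu3 3 (2.37%), Cha4 3 (0.570%) and Put3 3 (0.593%). Cat8 had 2 (1.41%), Urc2 2 (1.05%), Lys14 1 (0.981%) and Hal9 1 (2.12%). In each of the 12 libraries the share of convergent regions called, from 0.0890% to 0.534%, lay below that percentage.

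Of the 28 regions, 18 held an inner gene and gave 25 of the 37 pairs with 4408 insertions. The 10 with no inner gene gave 12 pairs with 224 insertions. So 11.5% of the 157 regions with an inner gene were called for at least 1 factor, and 1.04% of the 965 without. These are shares of regions and are not adjusted for length. The 157 had a median length of 1840 bp and 329 kb in all, and the 965 had 222 bp and 268 kb. Regions with an inner gene were called more often in the other classes too, at 19.9% against 11.2% for tandem and 33.2% against 13.8% for divergent regions. Among shared convergent regions, all 8 called pairs with at least 100 insertions had an inner gene, and the largest count without one was 35. Outside the shared set, HMLALPHA1/CHA1 had no inner gene and 602 Cha4 insertions. The tables give a count per region and not the place of each insertion, so it is not known where in a region the insertions lie.

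**Figure D3:**
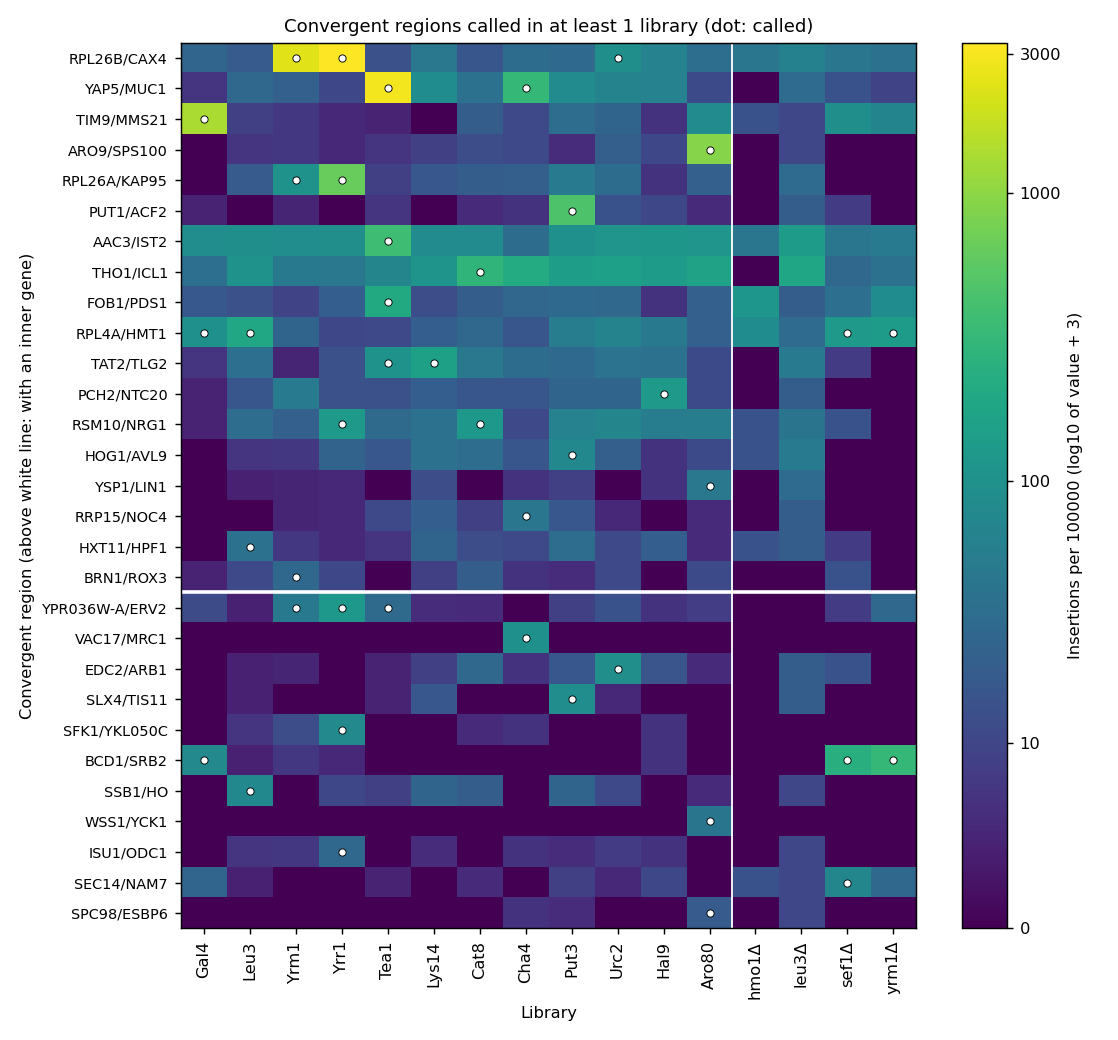
Insertions per 100000 (color, log10 of the value + 3) in the 29 convergent regions called in at least 1 of the 16 libraries (rows) across the libraries (columns). A dot marks a called region, the white horizontal line parts regions with an inner gene (above) from those without, and the vertical line parts the factor from the deletion libraries. Most rows are bright in 1 or 2 columns. AAC3/IST2 and THO1/ICL1 are bright in most columns but were called in 1 library each. Color is not set against the background, which held 70 and 100 insertions there in the 15 tables.

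The strongest convergent region for the drug-resistance factors Yrm1 and Yrr1 lay between RPL26B, a ribosomal protein gene, and CAX4, a dolichyl pyrophosphate phosphatase gene (chromosome VII, 556672 to 558149 in the tables' coordinates, sacCer2 per the submitters' processing notes). It holds YGR035C, a gene whose expression both factors are known to raise, and YGR035W-A. Yrr1 placed 927 insertions there and Yrm1 744, Urc2 26, and the other 9 factor libraries 4 to 12. The background held 28. The fold was 98.3 (67.6 to 149) for Yrr1, 71.3 (48.9 to 108) for Yrm1 and 2.84 (1.60 to 5.03) for Urc2. By number of insertions it ranked 2 of 4383 shared regions in the Yrm1 library and 3 in that of Yrr1. The next region to the right, CAX4/ACB1, was called as well, with 43 insertions for Yrr1 and 35 for Yrm1. To the left, TIM21/RPL26B was called for Yrr1 with 23 insertions and not for Yrm1 with 12.

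The paralogous ribosomal protein gene RPL26A flanks the second one. Between RPL26A and KAP95, a nuclear import receptor gene (chromosome XII, 820142 to 823828), lie YLR345W and CIS1, a gene of the response to stalled mitochondrial protein import. Yrr1 had 184 insertions, Yrm1 32 and the other 10 factor libraries 0 to 12, with 31 in the background. That gave 17.6-fold (12 to 26.7) for Yrr1 and 2.77-fold (1.64 to 4.69) for Yrm1. Neither region beyond the flanking genes was called, with 6 and 2 insertions for Yrr1.

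Tea1 had its main convergent region between YAP5, an iron-response regulator gene, and MUC1, the flocculin gene also known as FLO11 (chromosome IX, 385346 to 389572). MUC1 has a long and well-studied promoter, but that lies at its other end, and this interval, where MUC1 ends, holds the small open reading frame YIR018C-A. Tea1 had 1040 insertions, Cha4 57 and the other 10 factor libraries 2 to 21, with 34 in the background of the 15 tables. The fold was 72.1 (51.3 to 105) for Tea1 and 7.71 (4.95 to 12.2) for Cha4, and the region ranked 2 of 4383 for Tea1 and 5 for Cha4. On the far side of YAP5, MET28/YAP5 had 51 insertions for Tea1 and was called, and on the far side of MUC1 there were 9.

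Tea1 also had 131 insertions between AAC3, an ADP/ATP carrier gene, and IST2, a gene for a tether of the endoplasmic reticulum to the plasma membrane (4.41-fold, 3.27 to 5.98). The other 11 factor libraries had 6 to 34 there, and the background set of those tables had 70 insertions. Between FOB1, whose product blocks replication forks in ribosomal DNA, and PDS1, the securin gene, Tea1 had 74 insertions against 1 to 8 in the other 11 (6.23-fold, 3.98 to 10.0), and the inner gene is ALT2, an alanine transaminase paralog. TAT2/TLG2, beside the tryptophan permease gene TAT2, was called for both Tea1 with 38 and Lys14 with 37 insertions, at 2.18-fold (1.37 to 3.48) and 3.19-fold (1.99 to 5.10). It holds a tRNA gene (SUP3), YOL019W-A and TOS7, and was the only convergent region called for Lys14.

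Gal4 had 447 insertions between TIM9, a mitochondrial import chaperone gene, and MMS21, a SUMO ligase gene (chromosome V, 117474 to 120498), the 8th largest count of its library. The other 11 factor libraries had 0 to 22, and the background of the Gal4 table had 43. The fold was 32.1 (23.5 to 45.0). The 4 Gal4 libraries with an extra deletion had 1 to 13 insertions there, and the region was called in none of them. RPR1, the RNA of RNase P, and PXP1, a peroxisomal enzyme gene, lie inside. The regions beyond TIM9 and MMS21 had 0 and 1 Gal4 insertions. Between RPL4A and the arginine methyltransferase gene HMT1, where the zinc cluster gene EDS1 and YBR032W lie, Leu3 had 68 insertions (4.41-fold, 2.90 to 6.79) and Gal4 33 (2.12-fold, 1.32 to 3.38). The other 10 factor libraries had 3 to 18. The Gal4 call there was just past the threshold, with an authors' p of 0.000896.

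Aro80 and Put3 each had a strong convergent region that touches a gene they are known to control. ARO9, the aromatic aminotransferase gene that Aro80 activates, ends in ARO9/SPS100 (chromosome VIII, 377250 to 378219), which holds YHR138C. Aro80 had 241 insertions there and the other 11 factor libraries 0 to 6, with 9 in the background, or 86.0-fold (44.6 to 190). The regions on both outer sides were called too, with 1095 insertions in SPL2/ARO9 and 395 in SPS100/RPL42B. PUT1, the proline oxidase gene that Put3 activates, ends in PUT1/ACF2 (chromosome XII, 426616 to 429677), with a tRNA gene and DPH6, a gene of diphthamide synthesis, inside. Put3 had 110 insertions and the other 11 factor libraries 0 to 4, with 17 in the background, or 22.9-fold (13.7 to 40.7). RRN5/PUT1, which holds the PUT1 promoter, had 1004.

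The remaining called regions with an inner gene were smaller. Cat8, the regulator of growth on non-fermentable carbon sources, had 69 insertions in THO1/ICL1, at the end of the isocitrate lyase gene ICL1 with VHR2 inside (2.42-fold, 1.76 to 3.33). This region had the largest background count of all convergent ones, 100, and 12 to 43 insertions in the other 11 factor libraries. RSM10/NRG1, beside the glucose repressor gene NRG1, was called for Yrr1 with 36 insertions (2.43-fold, 1.52 to 3.86) and for Cat8 with 29 (2.32-fold, 1.40 to 3.79). PCH2/NTC20, with the Golgi ion transporter gene GDT1 inside, had 24 Hal9 insertions (7.69-fold, 3.82 to 16.1) and was the only convergent region called for Hal9. HXT11/HPF1, beside a hexose transporter gene, had 14 for Leu3 (8.16-fold, 2.56 to 34.1). The background there was 4 insertions, and 17 in the Gal4 table. RNA genes alone lay inside HOG1/AVL9 with 18 for Put3, YSP1/LIN1 with 12 for Aro80 and RRP15/NOC4 with 8 for Cha4. BRN1/ROX3 with 9 for Yrm1 is named after its value was seen, as the 4th of that library.

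In the shared set, called regions with no inner gene were short, held few insertions and nearly all lay beside a called promoter region. The region next to a convergent one, on the far side of a flanking gene, holds that gene's promoter. Of the 12 called pairs with no inner gene, 11 had at least 1 such neighbour called in the same library, against 7 of the 25 with an inner gene. For THO1/ICL1 in Cat8 the region beyond ICL1 was not listed, nor that beyond RPL4A for RPL4A/HMT1 in Gal4. A call there could not be counted. VAC17/MRC1 (255 bp, chromosome III, 18561 to 18816) had 18 insertions for Cha4 and 0 in the other 15 libraries. The background there was 0, so the fold was at least 27.6 against a floor of 3 background insertions. Across VAC17, a gene of vacuole inheritance, lay CHA1/VAC17 with 1273 Cha4 insertions. CHA1, the serine and threonine deaminase gene, is the classic target of Cha4.

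YPR036W-A/ERV2 (295 bp, chromosome XVI, 646153 to 646448) was called for 3 factors, the only such region with no inner gene. It held 35 insertions for Yrr1, 15 for Yrm1 and 11 for Tea1, and 0 to 4 in the other 9 factor libraries, with 4 in the background. The folds were 26.0 (9.29 to 101), 10.1 (3.20 to 41.6) and 6.48 (1.92 to 27.9). The gene between it and VMA13/YPR036W-A is 204 bp long, and that promoter region had 581, 551 and 806 insertions in the same 3 libraries.

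EDC2/ARB1, between genes of mRNA decapping and ribosome biogenesis, had 25 insertions for Urc2 (25.5-fold, 7.79 to 132), and ARB1/PHM8 next to it had 423. The background at EDC2/ARB1 was 3 insertions, and 13 in the Gal4 table. WSS1/YCK1 had 11 for Aro80 and 0 in the other 15 libraries, with YCK1/SPL2 at 282 and NSG1/WSS1 at 51. SLX4/TIS11 had 21 for Put3 (18.6-fold, 6.27 to 74.4), where the 2 neighbours had 12 and 52. The background at SLX4/TIS11 was 4 insertions, and 14 in the Gal4 table. Outside the naming rule, and named after their values were seen, were SFK1/YKL050C with 22 and ISU1/ODC1 with 8 for Yrr1, and SPC98/ESBP6 with 5 for Aro80. Their largest neighbours had 1087, 791 and 1523 insertions.

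BCD1/SRB2 was an exception in size. This 107 bp region (chromosome VIII, 189024 to 189131) between BCD1, a gene of snoRNA assembly, and SRB2, a Mediator subunit gene, held 26 Gal4 insertions and 0 to 2 in the other 11 factor libraries. The background of the Gal4 table had 1 insertion there, which gave a ratio of 80.3 with an interval from 13.2 to 3292. The called neighbour SRB2/NCP1 had 25, about as many, and lay across the 734 bp SRB2 gene. In the shared set, 1 region called in a factor library had neither an inner gene nor a called neighbour. This was SSB1/HO (365 bp, chromosome IV, 45906 to 46271), between genes for a ribosome-bound chaperone and the mating-type endonuclease. Leu3 had 27 insertions in it and the other 11 factor libraries 0 to 6, with 5 in the background (12.6-fold, 4.78 to 41.9). Its neighbours had 3 and 1. The background of the Gal4 table had 14 insertions in SSB1/HO.

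**Figure D4:**
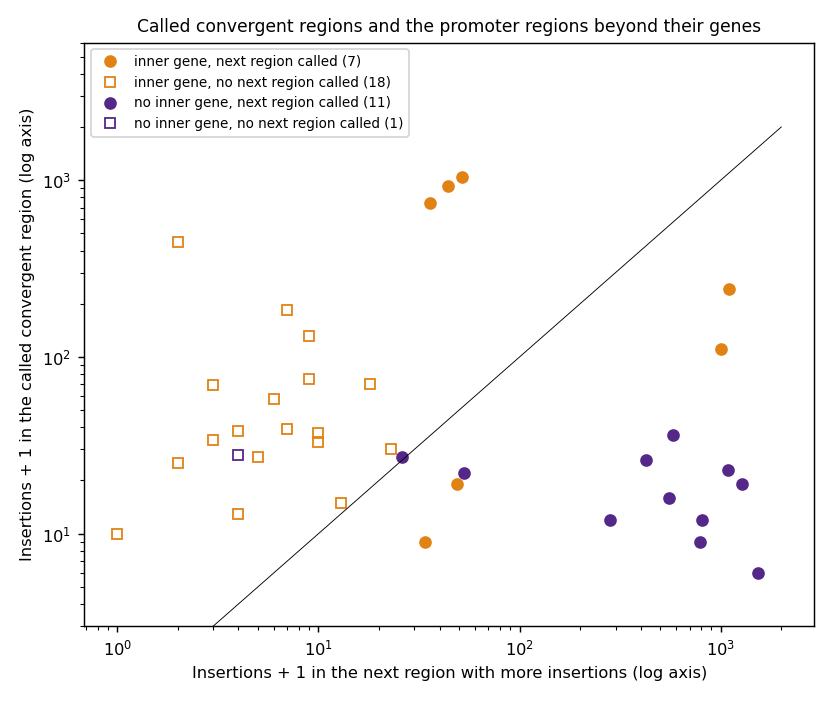
Insertions + 1 in each called convergent region (y axis, log scale) against insertions + 1 in whichever next promoter region held more (x axis, log scale), for the 37 called pairs of the 12 factor libraries; the line marks equal counts, not adjusted for length. Filled circles have a called next region and open squares have none among those listed. Pairs with no inner gene (purple) lie mostly to the lower right beside large counts, 11 of 12 with a called neighbour, and most pairs with an inner gene (orange) lie above the line.

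All regions with no inner gene, called or not, were then split by their neighbours. Over the 12 factor libraries, 430 pairs had a called next region and 11150 had none. Of the first, 11 (2.56%) were called, and of the second 1. The pooled fold was 1.23 beside a called promoter region and 0.478 elsewhere. The 11 called pairs hold much of the first value: with called convergent regions left out, an alternative chosen after seeing the data, the folds were 0.713 and 0.474. Within single libraries the fold was higher beside called promoter regions in all 11 that gave a fold, and it stayed higher in all 11 without called convergent regions. For Cha4 the bound of at least 29.1, against 0.606 elsewhere, rests on VAC17/MRC1, which held 18 of the 19 insertions. The intervals lay apart in 8 of the 12 libraries with called regions and in 5 without them (Gal4, Yrm1, Yrr1, Put3 and Aro80). The highest were Put3 at 3.97 (2.55 to 6.20) and Yrr1 at 3.50 (2.50 to 4.92), which were 2.39 (1.38 to 4.08) and 0.693 (0.358 to 1.25) without called regions, and the lowest Hal9 at 0.488 (0.266 to 0.833).

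The folds were also split by the length of the flanking gene between. Beside called promoter regions the pooled fold was 1.90 when the gene between was up to 1000 bp long, with 8 of 153 pairs called. It was 0.768 for genes of 1000 to 2000 bp, with 2 of 195 called, and 0.766 for longer genes, with 1 of 82. Without called convergent regions these folds were 0.937, 0.550 and 0.642, since the 8 called pairs hold 152 of the 287 insertions in the first class. Away from called promoter regions the folds were 0.534, 0.409 and 0.395 with all pairs, in the same length ranges. There the shorter flanking gene set the class, while beside called regions only a gene toward a called region did. Both series are therefore not directly comparable. Whether insertions beside strong promoters come from the factor at that promoter was not tested.

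**Figure D5:**
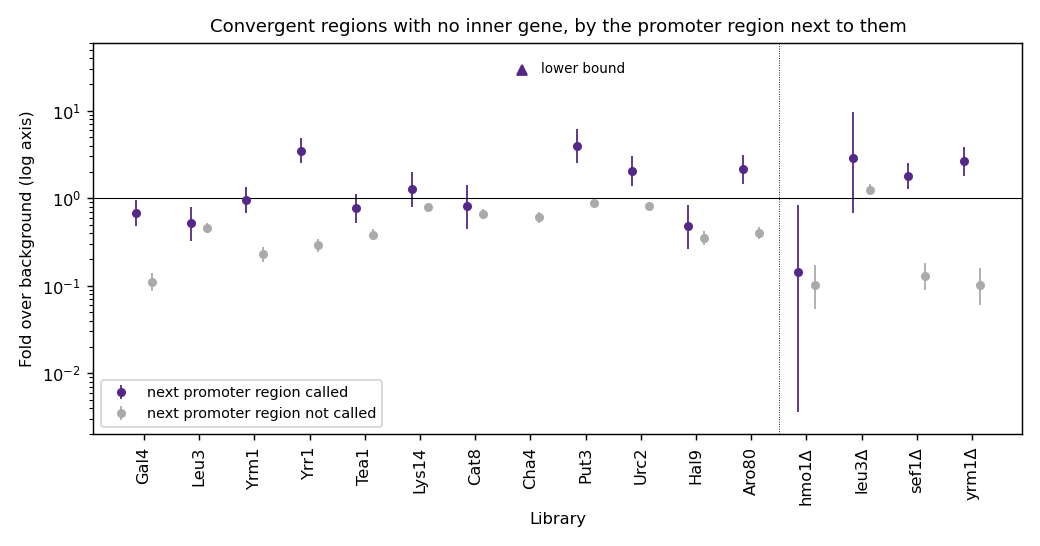
Fold over background (y axis, log scale) in convergent regions with no inner gene for each library (x axis), split by whether a next promoter region was called in that library. Points are folds, lines 95% exact binomial intervals, and the triangle for Cha4 is the bound of 29.1 against a background of 0. In each of the 12 factor libraries the purple point lies above the grey one.

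Of the 3 convergent regions with the most background insertions, THO1/ICL1 was called for Cat8 and the other 2 for no factor. RER1/CDC10 had 87 background insertions in the 15 tables and 4 to 22 in the factor libraries. It is the longest member at 4898 bp, lies beside the septin gene CDC10 and holds YCL001W-A, YCL001W-B and YCR001W. RMD1/NTH1, beside a neutral trehalase gene and with no inner gene, had 79, but only 4 in the background of the Gal4 table, and 0 to 4 insertions in the factor libraries. Over all 1123 convergent regions the counts of both backgrounds correlated with r = 0.903, given as a description. The fold at RMD1/NTH1 depends on the background set used, and none is given. Some called regions with few background insertions differed as well. BRN1/ROX3 had 2 in the 15 tables and 17 in the Gal4 table, and SEC14/NAM7 had 1 and 8. Folds at such regions also depend on the set used. At PUT1/ACF2 the counts were close, at 17 and 18.

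Of the 4 Gal4 libraries with an extra deletion, 3 had a smaller convergent share than the Gal4 library and 1 a larger one. The convergent share was 0.967% for hmo1Δ, 1.36% for sef1Δ and 1.35% for yrm1Δ, against 2.40% for Gal4 and 6.22% for leu3Δ. The 3 lower values rest on TIM9/MMS21: with it left out, chosen after seeing the data, the Gal4 share was 1.07% and the ratio to it 0.887 (0.672 to 1.16) for hmo1Δ, 1.18 (0.981 to 1.42) for sef1Δ and 1.20 (0.973 to 1.46) for yrm1Δ, with 5.79 (5.07 to 6.61) for leu3Δ. The folds over background were 0.199 (0.154 to 0.253), 0.280 (0.241 to 0.324), 0.278 (0.233 to 0.330) and, for leu3Δ, 1.28 (1.17 to 1.40). The leu3Δ library had no called convergent region and 0.160% of all shared regions called, and its fold was 1.27 (1.10 to 1.45) without and 1.29 (1.15 to 1.44) with an inner gene. In tandem and divergent regions the leu3Δ fold was 1.09 (1.05 to 1.13) and 0.982 (0.941 to 1.03). The leu3Δ share in convergent regions with no inner gene was 7.26 times (5.79 to 9.15) that of the Gal4 library, whose fold there was 0.166. The same ratio was 0.591 (0.313 to 1.03) for hmo1Δ, 1.62 (1.20 to 2.18) for sef1Δ and 1.59 (1.14 to 2.21) for yrm1Δ. Without BCD1/SRB2 these ratios were 9.38 (7.33 to 12.1), 0.763 (0.401 to 1.35), 1.17 (0.794 to 1.70) and 0.883 (0.538 to 1.40), so that only that of leu3Δ had an interval apart from 1. In these counts, hmo1Δ had no called convergent region either (1.28% of all regions), sef1Δ had 3 (1.98%) and yrm1Δ 2 (1.53%).

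Region by region, each deletion library was set against the Gal4 library by Fisher's exact test, two-sided, with Benjamini-Hochberg adjustment over all regions whose insertions in the pair of libraries summed to 10 or more. This compares single libraries, not genotypes, and the strains also differ in their labels. Higher calls numbered 1 of 11 convergent regions for hmo1Δ (6.79% of all tested regions), 6 of 16 for leu3Δ (29.6%), 1 of 12 for sef1Δ (11.1%) and 2 of 12 for yrm1Δ (7.39%). Lower calls numbered 1 for hmo1Δ (1.36% of all tested), 2 for leu3Δ (20.7%), 1 for sef1Δ (3.97%) and 1 for yrm1Δ (4.35%).

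TIM9/MMS21, the largest convergent region of Gal4, was lower in all 4. Against 447 insertions for Gal4 it had 1 in hmo1Δ, 1 in leu3Δ, 13 in sef1Δ and 7 in yrm1Δ. The ratios of the scaled counts were 0.0109 (0.000274 to 0.0608), 0.00782 (0.000197 to 0.0438), 0.0705 (0.0372 to 0.122) and 0.0513 (0.0205 to 0.106). The adjusted p of the exact test was 7.65e-33, 4.21e-46, 1.49e-47 and 1.24e-39 in that order. All 4 comparisons share the Gal4 library, so a high count in that 1 library and low counts in the deletion strains cannot be told apart. The other 11 factor libraries, from other factors, had 0 to 22.

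BCD1/SRB2 moved the other way in 2 of them. It had 34 insertions in sef1Δ and 32 in yrm1Δ against 26 in the deeper Gal4 library, or 245 and 311 per 100000 against 77.3. The ratios were 3.17 (1.85 to 5.50) with an exact test's adjusted p of 0.000139 and 4.03 (2.33 to 7.04) with an adjusted p of 1.05e-05. It had 0 in hmo1Δ and in leu3Δ, and only leu3Δ passed the exact test as lower, with an adjusted p of 0.00889. The neighbour SRB2/NCP1 was at 101 per 100000 in sef1Δ, 87.5 in yrm1Δ and 74.3 in Gal4, and at 0 in the other 2. The region was called in 3 libraries of Gal4 and in none of another factor.

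FOB1/PDS1 was higher in hmo1Δ, with 8 insertions against 6 and a ratio of 6.47 (1.97 to 22.6, adjusted p of the exact test 0.0164). In yrm1Δ it had 9, at a ratio of 4.91 (1.56 to 16.8, adjusted p of the exact test 0.0247), a call that was lost when counts were scaled to the median ratio of regions. In leu3Δ the regions with the largest ratios were MID2/RPS25B with 13 against 3 (15.1, 4.16 to 82.8), DOM34/CIT1 with 8 against 2 (14.0, 2.79 to 135) and RER1/CDC10 with 14 against 4 (12.2, 3.84 to 51.0). Over background these same regions were at 2.23 (1.11 to 4.15), 1.40 (0.572 to 2.97) and 1.41 (0.738 to 2.49) in leu3Δ, and at 0.136, 0.147 and 0.134 in the Gal4 library. The leu3Δ interval included 1 at DOM34/CIT1 and RER1/CDC10, and the Gal4 values had intervals below 1 at all 3 regions. SEC14/NAM7, with no inner gene, was called in sef1Δ with 10 insertions and in no other library, and its neighbours had 0. The Gal4 library had 9 there, and the difference did not pass the exact test, with an adjusted p of 0.166.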

How the data were processed

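Insertions of Ty5 were counted in 16 libraries, 1 per group. The submitters' processing notes name Novoalign and sacCer2, with no version. For every region between genes the authors deposited the library's count and a background count of insertions. Per the file headers, every count also appears as a fraction of all insertions, beside p-values of a hypergeometric and a Poisson test. The deposited hypergeometric p-value was recomputed from the counts and differed by at most 3.26e-08.

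Convergent regions were those shared by all tables with flanking genes on the W and C strands, and 6 of them differed by over 20 bp in length in the Gal4 table. Inner and next genes came from the order of genes in RefSeq's R64 table, with no coordinates converted. Shares have exact Clopper-Pearson 95% intervals, and ratios exact conditional binomial ones. Calls needed an authors' p of 0.001 or less and 5 insertions. Deletion libraries were compared with the Gal4 library by two-sided Fisher's exact tests with Benjamini-Hochberg adjustment over regions with at least 10 insertions together. A count of 0 allows up to 3 insertions, which is 8.32 to 16.4 per 100000 in the factor and up to 43.3 in the deletion libraries. Python 3.11.15, SciPy 1.17.1 and pandas 2.3.3 were used.

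The members and lists were chosen with earlier results of these data known. Regions named were, per factor library, the 3 called convergent regions with the most insertions, those called for at least 3 factors, the 3 with the most background insertions, up to 3 per direction in each deletion comparison, and neighbours of these. Alternatives changed the region set, background, denominator, p threshold, minimum count, depth and scaling.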

Additional observations from a re-analysis of the deposited data

Results flagged for a closer look

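Called convergent regions also occurred in the tables outside the set shared by all 16, since the Gal4 table does not list them with the same flanking genes, and 3 were called in a factor library. HMLALPHA1/CHA1, at the end of the serine and threonine deaminase gene CHA1 beside the silent mating-type cassette and with no inner gene, had 602 insertions for Cha4, or 72.8-fold over background (52.4 to 104), and 0 to 29 in the other 14 libraries whose tables list it. VBA3/HMLALPHA2, which holds YCL068C, had 53 for Cha4, or 10.6-fold (6.38 to 18.1), and 0 to 5 in the other 14. MGA1/YGR250C, with no inner gene, had 18 for Hal9, or 5.77-fold (2.71 to 12.5), and 0 to 7 in the other 14. Intervals cover counting error only.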

How the results depend on the processing

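The median fold of convergent regions over the factor libraries, 0.807, was 0.465 without regions that hold an inner gene, 0.563 without each library's top region, 0.498 without called regions and 0.697 when shares were taken of insertions between genes. Under these 4 settings in that order, Yrr1 was at 0.419, 0.558, 0.356 and 0.980, and Tea1 at 0.415, 0.568, 0.436 and 0.952, all below 1. Top and called regions are chosen for high counts in the same library, so leaving them out lowers these folds by that choice. Put3 was below 1 without inner genes (0.967), without called regions (0.982) and with the between-gene denominator (0.990). Cha4 rose to 1.44 in its own table, which adds HMLALPHA1/CHA1. The median share, 3.92%, was 0.913% without inner genes, 2.71% without top regions and 4.34% in each library's own table. The median density, 6.56 per 100000 per kb, was 3.40 without inner genes and 4.57 without top regions. The 37 called pairs became 57 at a p of 0.01, 61 with the authors' Poisson p, 21 with libraries thinned to equal depth, and 12 without inner genes, and 27 without Yrm1 and Yrr1, an alternative chosen after seeing the data. With an adjusted p, RPL4A/HMT1 in Gal4 (0.0504), RRP15/NOC4 in Cha4 (0.0538) and SPC98/ESBP6 in Aro80 (0.0532) were no longer called. In the deletion comparisons, 10 higher calls became 24 with at least 5 insertions together and 3 with at least 20, while lower calls numbered 5 in the main setting and in both of these. Scaled to the median ratio, which moved leu3Δ by 1.03 on the log2 scale, 7 were higher and 7 lower. No paired analysis was possible because each group had 1 library and the labels carry no replicate numbers. The shallow deletion libraries limit what is seen there, as 1 insertion is 7.20 to 14.4 per 100000.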
